A study of Homo sapiens with 6 samples.

Results

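The metallothioneins MT1E, MT1F, MT1G, MT1M, MT1X and MT2A and the zinc response genes MTF1, SLC30A1 and SLC39A10 were examined in TFK1 cells, an established human line from an extrahepatic bile duct carcinoma, after STUB1 overexpression. These 9 genes were chosen by symbol from the 23569 genes of the expression table. Of the 9 genes, 7 were listed and 6 reached the minimum mean level for testing, while MT1G and MT1M were not listed in the table used here and MT1E was below the minimum. RNA-seq covered 3 libraries of cells carrying the lentiviral negative control (oeNC) and 3 libraries of cells overexpressing the STUB1 coding sequence from a lentiviral vector (oeSTUB1). Both were stable puromycin-selected lines with no further treatment stated, and as far as the study tells each group is a single transduced population. The study states in general that its experiments were independent and repeated, but nothing ties the 3 libraries of a group to separate cultures, so p-values measure the spread between these libraries, which may be technical. In bulk RNA, a change in the number of expressing cells and a change in RNA per cell cannot be told apart.

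Metallothioneins are small cysteine-rich proteins that bind zinc, copper and cadmium, and in humans most of their genes lie side by side on the long arm of chromosome 16. Zinc activates the transcription factor MTF1, which binds metal response elements in the promoters of metallothionein genes and of SLC30A1, the plasma membrane zinc exporter ZnT1. SLC39A10 encodes ZIP10, an importer that brings zinc into the cytosol and whose transcription is known to be held down by zinc through MTF1. Metallothionein genes also respond to glucocorticoids and to oxidative stress. STUB1 is a ubiquitin ligase and cochaperone, also called CHIP.

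Promoters are shown for the metallothioneins MT2A and MT1X, which rose together, and for SLC30A1, a gene of the same response that did not pass the test. Each sequence is the RefSeq promoter on GRCh38.p14, 250 bases before to 50 bases after the annotated start, read along the gene's own strand. They lie at chr16:56608334-56608633 on the plus strand for MT2A, at chr16:56682220-56682519 on the plus strand for MT1X and at chr1:211579112-211579411 on the minus strand for SLC30A1. Capitals mark matches to the core of the metal response element, searched as TGCACNC or TGCGCNC on both strands, so that a match on the other strand reads GNGTGCA or GNGCGCA. No printed matches overlap.
MT2A: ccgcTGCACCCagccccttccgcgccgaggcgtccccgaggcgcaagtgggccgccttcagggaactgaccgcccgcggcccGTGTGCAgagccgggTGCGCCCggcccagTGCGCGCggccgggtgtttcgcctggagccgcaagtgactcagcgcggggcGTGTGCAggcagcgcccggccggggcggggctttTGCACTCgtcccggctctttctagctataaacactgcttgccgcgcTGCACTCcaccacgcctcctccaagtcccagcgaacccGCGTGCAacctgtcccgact
MT1X: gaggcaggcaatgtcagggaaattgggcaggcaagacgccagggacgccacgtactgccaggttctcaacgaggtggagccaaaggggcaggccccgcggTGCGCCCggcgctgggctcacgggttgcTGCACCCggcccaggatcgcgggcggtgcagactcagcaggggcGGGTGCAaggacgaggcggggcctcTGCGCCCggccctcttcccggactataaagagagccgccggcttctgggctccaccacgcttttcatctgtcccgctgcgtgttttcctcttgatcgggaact
SLC30A1: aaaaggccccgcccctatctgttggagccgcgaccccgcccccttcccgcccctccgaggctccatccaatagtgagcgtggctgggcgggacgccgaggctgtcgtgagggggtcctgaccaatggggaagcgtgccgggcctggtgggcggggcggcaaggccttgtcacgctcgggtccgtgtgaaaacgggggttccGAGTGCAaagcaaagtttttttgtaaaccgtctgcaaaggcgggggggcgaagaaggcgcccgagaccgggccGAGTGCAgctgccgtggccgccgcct
MT2A held 8 matches, MT1X 4 and SLC30A1 2. Of the 35116 promoters in the RefSeq table, 29.6% held at least 1 match, 8.6% at least 2, 0.601% at least 4 and 0.0199% at least 8. The MT2A and MT1X promoters therefore held more matches than nearly all others. The MTF1 promoter held 0 matches, and SLC39A10 held 0 and 1 in its pair of annotated promoters. For MT1E, MT1F, MT1G and MT1M the promoter table held no entry.

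**Figure D1:**
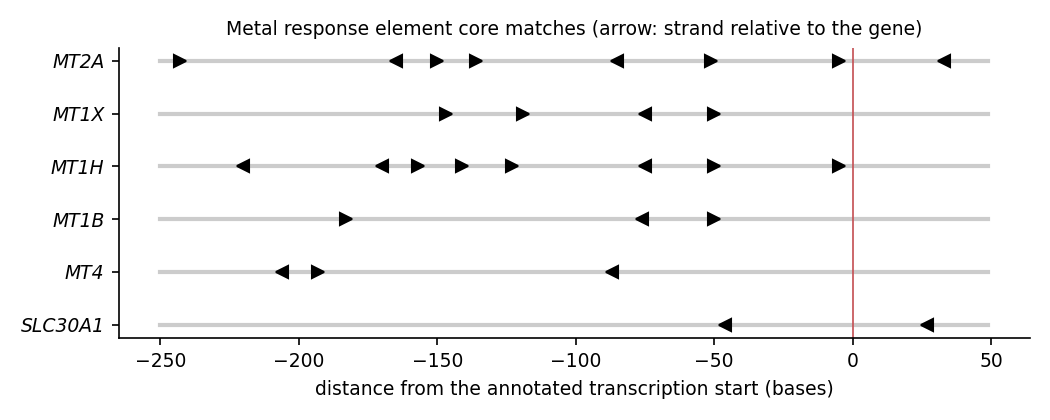
Matches to the metal response element core in RefSeq promoters, with the distance from the annotated transcription start in bases on the x axis, 1 row for each gene, and triangles pointing right for a match on the gene's strand and left for the other strand. MT2A carries 8 matches and MT1X 4, against 2 in SLC30A1. MT1H, MT1B and MT4, which are not listed in the expression table, are drawn as other family members with 8, 3 and 3.

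Expression was measured as FPKM, the fragments of a gene scaled to its length and to the library total. Levels of genes of unlike length can be set side by side only roughly. Groups were compared with limma on log2(FPKM + 0.1) for 15353 genes, and genes were called higher or lower where the p-value stayed under 0.05 after Benjamini-Hochberg adjustment. The added 0.1 makes the fitted change of a low gene smaller than its ratio of FPKM. STUB1 itself, which checks the labels, measured 32.9, 33.0 and 30.9 FPKM in oeNC and 61.4, 75.0 and 61.9 FPKM in oeSTUB1 (log2 fold change 1.03, standard error 0.097, adjusted p = 0.00064 from limma). Fragments of the transgene and of the endogenous gene are counted together in these values.

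Library totals lay between 33106564 and 36744521 fragments. Replicates differed by a median of 0.065 to 0.093 on the log2 scale between oeNC libraries and by 0.092 between oeSTUB1 replicates 1 and 3. oeSTUB1 replicate 2 stood apart from the other oeSTUB1 libraries by 0.26 and 0.27. Its values were higher for short genes and lower for long ones, so the main results are also given without it. Among the bile duct markers, KRT7 was at 482 to 872 FPKM in the 6 libraries, whereas KRT19 was at 0.374 to 3.41 FPKM. Of the markers of other cell types, the fibroblast genes COL1A2 and DCN and the hepatocyte genes APOA2, APOB and TTR were at or under 3 fragments in every library of both groups. Others were expressed, with the hepatocyte gene CPS1 at 93.5 to 99.2 FPKM in oeNC and 32.6 to 51.6 in oeSTUB1, the leukocyte gene CD68 at 26.8 to 27.7 and 19.1 to 19.4, and the fibroblast gene COL1A1 at 1.07 to 1.95 and 1.93 to 3.68. Of the tested markers, 1 of 8 bile duct genes was higher (KRT19) and 4 were lower (EPCAM, CDH1, KRT18 and KRT8, with log2 fold changes of -1.13, -1.09, -0.68 and -0.57), against 7.01% higher and 6.59% lower among all tested genes. KRT18 and KRT8 each lost the call under 7 of 16 alternatives. EPCAM, like the hepatocyte gene CPS1, lies on chromosome 2, where 15.5% of 1031 tested genes were called lower. Further, 1 of 6 leukocyte genes (CD68) and 1 of 2 hepatocyte genes (CPS1) were lower, and 0 of 2 fibroblast genes were called by limma, with 2 at an unadjusted p under 0.05 and 0 by limma-voom.

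MT2A, MT1X and MT1F were higher in oeSTUB1 cells, SLC39A10 was lower, and MTF1 and SLC30A1 did not pass the test. MT2A, the most abundant metallothionein, was 6.5-fold higher, MT1F 2.84-fold and MT1X 2.39-fold, as ratios of mean FPKM. Thus 4 of the 6 tested genes were called, where 13.6% of all tested genes were called. In the upward direction it was 3 of 6, against 7.01% of all tested genes, and in the downward direction 1 of 6, against 6.59%. With an absolute log2 fold change over 1 required in addition, 3 of 6 were higher, against 2.79% of all tested genes, and 0 of 6 were lower, against 2.4%. The libraries of oeSTUB1 lay wholly above those of oeNC for 3 of the 6 genes and for 21.5% of all tested genes, and wholly below for 1 of the 6 and for 17.3%. The median log2 fold change of the 6 genes was 0.59, and that of all tested genes was 0.02. The genes were chosen with earlier results of these data known, so these shares are descriptions and carry no test.

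MT2A spans chromosome 16 from 56608199 to 56609497 on the plus strand of GRCh38 in GENCODE release 29 and is protein coding, as are all 9 genes. Its expression was 35.4, 37.0 and 32.0 FPKM in the oeNC libraries and 197, 320 and 161 FPKM in the oeSTUB1 libraries. Every oeSTUB1 library was far above every oeNC library, with replicate 2 the highest. These values rest on 492, 514 and 471 fragments in oeNC and 2722, 4249 and 2205 in oeSTUB1. The mean rose from 34.8 ± 2.56 to 226 ± 83.4 FPKM (SD, n = 3 each). The log2 fold change was 2.64 (standard error 0.23, 95% CI 2.12 to 3.16, adjusted p = 0.00042 from limma). Among the 15353 tested genes this was the rise of rank 26. Without oeSTUB1 replicate 2 the log2 fold change was 2.36 (adjusted p = 1.6e-05 from limma).

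MT1X, the second most abundant metallothionein of these cells, lies at the distal end of the gene cluster, from 56682424 to 56684196 on the plus strand. It was at 13.6, 11.9 and 12.4 FPKM in oeNC and at 25.7, 43.5 and 21.4 FPKM in oeSTUB1. The groups did not overlap, and replicate 2 again gave the highest value. The means were 12.6 ± 0.837 and 30.2 ± 11.7 FPKM (SD, n = 3 each), a log2 fold change of 1.19 (standard error 0.23, 95% CI 0.65 to 1.72, adjusted p = 0.015 from limma). It no longer passed the threshold without oeNC replicate 2 (log2 fold change 1.15, adjusted p = 0.062 from limma) or without oeNC replicate 3 (1.17, adjusted p = 0.061 from limma). Without oeSTUB1 replicate 2 the log2 fold change was 0.89 (adjusted p = 0.00081 from limma). MT1X overlaps AC026461.1 on the same strand, and how fragments shared by both were counted is not given in the sources used here.

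MT1F, from 56657694 to 56660698 on the plus strand, was a low gene. It measured 1.67, 2.16 and 1.40 FPKM in oeNC, from 27, 35 and 24 fragments, and 4.04, 6.73 and 4.07 FPKM in oeSTUB1, from 65, 104 and 65 fragments. No oeSTUB1 library reached down into the oeNC range. The means of 1.74 ± 0.387 and 4.95 ± 1.54 FPKM (SD, n = 3 each) gave a log2 fold change of 1.43 (standard error 0.23, 95% CI 0.90 to 1.97, adjusted p = 0.0064 from limma). The value was 1.19 with oeSTUB1 replicate 2 left out (adjusted p = 0.0029 from limma).

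MT1E, from 56625475 to 56627112 on the plus strand, was represented by 0, 0 and 1 fragments in oeNC and by 2, 0 and 1 fragments in oeSTUB1. Both groups were at or under 3 fragments in every library, which corresponds to a mean limit of 0.114 FPKM in oeNC and 0.119 FPKM in oeSTUB1, and no fold change is given. Expression below those limits was not detectable at this depth. Such limits cover counting error only.

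**Figure D2:**
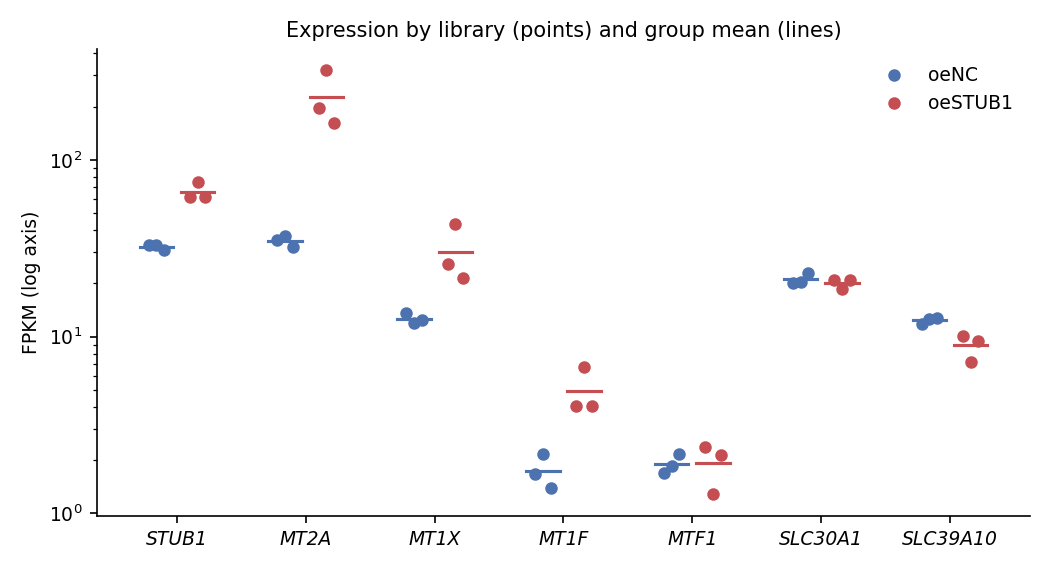
Expression of STUB1 and of the 6 tested genes in FPKM on a log axis, with 1 point for each of the 3 oeNC (blue) and 3 oeSTUB1 (red) libraries in the order of replicate number and a line at each group mean. All red points of MT2A, MT1X and MT1F lie above the blue ones, those of SLC39A10 lie below, and the groups overlap for MTF1 and SLC30A1.

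The metallothionein transcripts also changed in their proportions. Summed over the 4 listed metallothioneins among the 9 genes, expression was 50.6, 51.1 and 45.8 FPKM in oeNC and 227, 370 and 186 FPKM in oeSTUB1. The ratio of the means of 49.1 ± 2.91 and 261 ± 96.6 FPKM (SD, n = 3 each) was 5.31, and it was 4.2 without oeSTUB1 replicate 2. MT2A made up 69.9, 72.4 and 69.8% of the sum in oeNC and 86.8, 86.4 and 86.3% in oeSTUB1. MT1X made up 26.8, 23.4 and 27.1% in oeNC and 11.3, 11.8 and 11.5% in oeSTUB1. These shares are descriptions of sums dominated by MT2A and carry no test.

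The total level of the oeSTUB1 libraries thus spread widely, with a standard deviation of 37% of the mean, whereas the make-up hardly moved between them. The ratio of MT2A to MT1X in FPKM was 2.61, 3.10 and 2.58 in oeNC and 7.66, 7.36 and 7.53 in oeSTUB1. Between MT1X and MT1F the ratio was 8.13, 5.52 and 8.86 in oeNC and 6.37, 6.47 and 5.25 in oeSTUB1, so that the groups overlapped there.

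**Figure D3:**
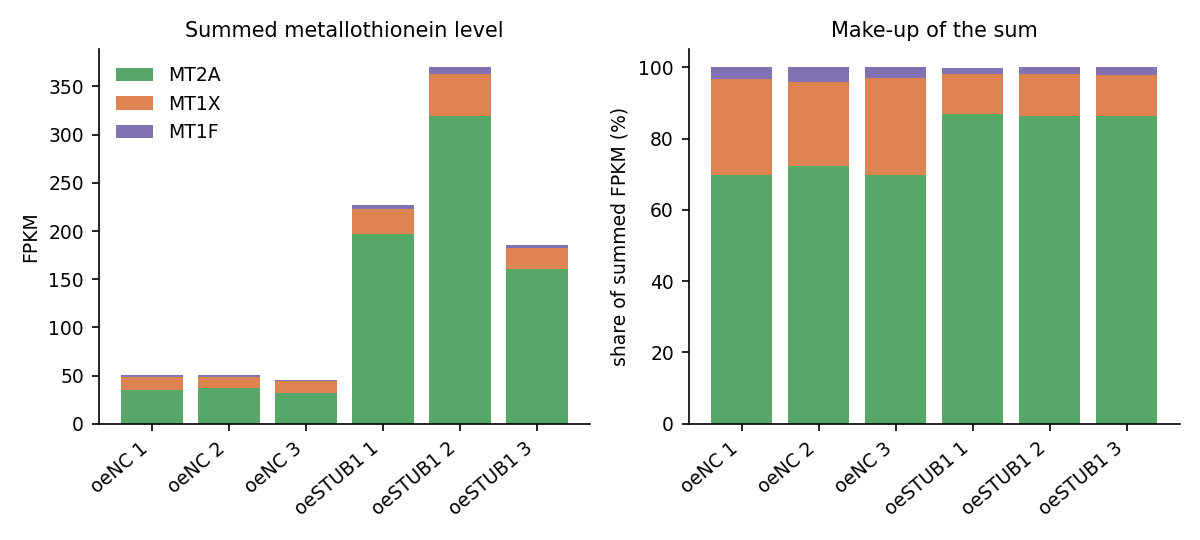
Summed metallothionein expression in FPKM for each of the 6 libraries (left) and its make-up in percent (right), stacked as MT2A, MT1X and MT1F. MT1E is in the sum but is at most 0.0778 FPKM in any library and is not drawn. The oeSTUB1 libraries reach 186 to 370 FPKM against 45.8 to 51.1 FPKM in oeNC, and the MT2A share is 86.3 to 86.8% against 69.8 to 72.4%.

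Transcript length moved with these values. MT2A, MT1X and MT1F had lengths of 401, 404 and 467 bases as recovered from the table, and in oeSTUB1 replicate 2 they exceeded the mean of replicates 1 and 3 by 0.85, 0.89 and 0.72 on the log2 scale. The 158 genes of 300 to 600 bases with a mean of at least 1 FPKM exceeded it by a median of 0.52. The 2645 genes of 6000 to 12000 bases had a median difference of -0.32. Across the short genes the median log2 fold change between the groups was 0.11, and 6.96% were called higher. Among these 158 genes 0 exceeded the log2 fold change of MT2A, 2 exceeded that of MT1F and 5 that of MT1X. The 158 include MT2A, MT1X and MT1F themselves, so the 2 include MT2A and the 5 include MT2A and MT1F. With each library corrected for gene length, an alternative chosen after seeing the data, the log2 fold changes were 2.55 for MT2A, 1.10 for MT1X and 1.35 for MT1F (adjusted p = 2.1e-05, 0.0018 and 0.0011 from limma).

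Metallothionein transcripts resemble one another, and how fragments matching several genes were counted is not given in the sources used here. Of the 50-base windows of a reference transcript, 7.52% in MT2A, 16% in MT1X with AC026461.1 left aside, 0.272% in MT1F and 10.6% in MT1E also occurred in a transcript of another gene. No 100-base window of these transcripts did, again with AC026461.1 left aside. MT2A and MT1X were each among the genes sharing 50-base windows with the other. The part of such shared fragments in the MT1X values was not tested. The reference transcript was the coding one nearest in length to that recovered, which for MT2A had 581 bases against 401. With AC026461.1 counted, 45.1% of the 50-base windows of MT1X and 19.1% of its 100-base windows were shared.

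Of 10 further metallothionein genes and pseudogenes, MT1A and MT3 were listed. MT1A was at 0, 0 and 1 fragments in oeNC and at 1, 15 and 5 in oeSTUB1. Its oeNC libraries were at the floor of 3 fragments, which makes the mean at least 2.47-fold higher in oeSTUB1, but at least 1.03-fold without oeSTUB1 replicate 2. The highest oeNC and the lowest oeSTUB1 library both held 1 fragment, and MT1A was not called (adjusted p = 0.087 from limma). MT3, a brain form, had 1 fragment in oeSTUB1 replicate 2 and 0 in the other libraries. MT1B, MT1H, MT1L, MT1HL1, MT1JP, MT1DP, MT1IP and MT4 were not listed in the table used here.

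From the start of MT2A to the end of MT1X the cluster covers 76 kb. The protein-coding genes around it were compared to see whether the surrounding region moved as well. NUDT21, OGFOD1 and BBS2 on one side and NUP93 and HERPUD1 on the other had log2 fold changes of 0.01, 0.20, -0.08, 0.06 and -0.11. Of these 5 genes 0 were called, with adjusted p-values from 0.17 to 0.93 from limma. Among all tested genes 13.6% were called, so 0 of 5 is too few genes to tell the region from that share. OGFOD1 had the lowest of these p-values. Its oeSTUB1 libraries lay wholly above those of oeNC, as for 21.5% of all tested genes. At an unadjusted p under 0.05 there were 0 of the 5, and limma-voom called 0. SLC12A3 was below the minimum level and CETP was not listed. Over all of chromosome 16 the median log2 fold change of 676 tested genes was 0.05, with 5.62% called higher and 5.62% lower.

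**Figure D4:**
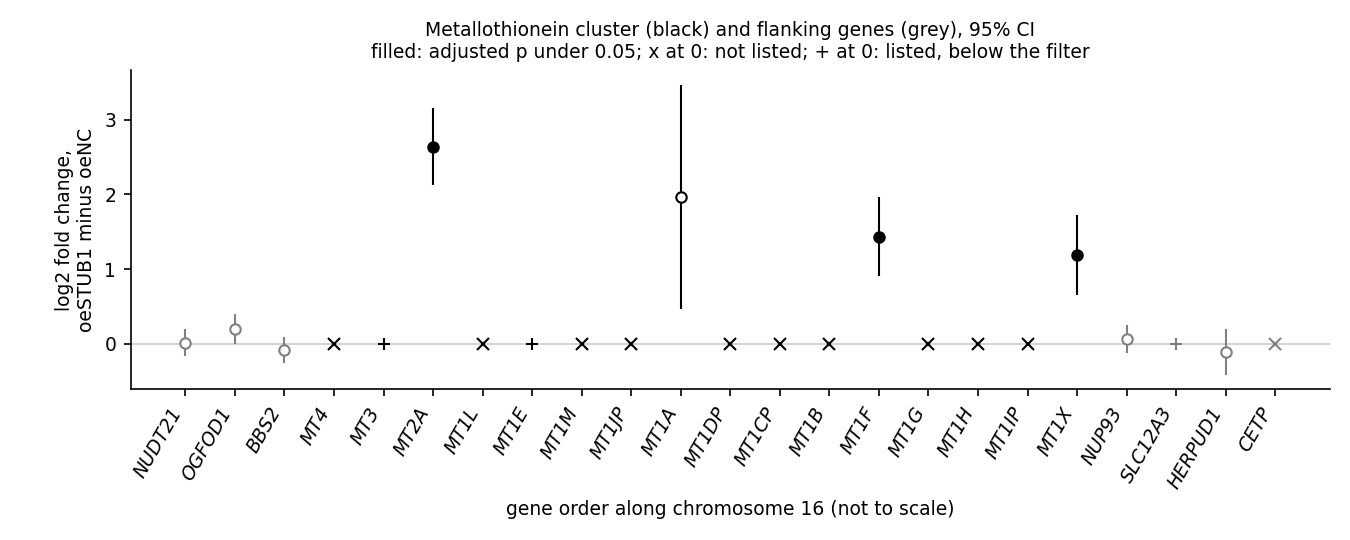
Log2 fold change (oeSTUB1 minus oeNC) with 95% confidence intervals for the metallothionein cluster (black) and the flanking protein-coding genes (grey), in gene order along chromosome 16 and not to scale. Filled points passed an adjusted p of 0.05. Crosses at 0 mark genes not listed and plus signs genes below the minimum level. MT2A, MT1F and MT1X stand at 2.64, 1.43 and 1.19 and MT1A, not called, at 1.97, while the 5 measured flanking genes lie between -0.11 and 0.20.

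MTF1, the zinc-sensing factor, is encoded on chromosome 1 from 37809567 to 37859620 on the minus strand. Its transcript was at 1.69, 1.85 and 2.16 FPKM in oeNC and at 2.38, 1.28 and 2.13 FPKM in oeSTUB1. The oeSTUB1 values enclosed the oeNC values, with replicate 2 the lowest. The log2 fold change was -0.01 (standard error 0.22, 95% CI -0.53 to 0.51, adjusted p = 0.98 from limma), and 0.24 without oeSTUB1 replicate 2 (adjusted p = 0.2 from limma). Zinc acts on the MTF1 protein, which RNA-seq does not measure.

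SLC30A1, the exporter ZnT1 and itself an MTF1 target, lies on chromosome 1 from 211571568 to 211578742 on the minus strand. It was at 20.1, 20.4 and 22.9 FPKM in oeNC and at 20.8, 18.5 and 20.9 FPKM in oeSTUB1. The groups overlapped, and the means of 21.1 ± 1.5 and 20.1 ± 1.39 FPKM (SD, n = 3 each) differed by less than the spread between libraries. Leaving out oeSTUB1 replicate 2 gave a log2 fold change of -0.02. The log2 fold change was -0.08 (standard error 0.089, 95% CI -0.28 to 0.13, adjusted p = 0.62 from limma). At 3600 to 4949 fragments per library, depth was not the limit here, and the interval lies wholly below the intervals of MT2A, MT1F and MT1X.

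SLC39A10, the importer ZIP10, lies on chromosome 2 from 195575977 to 195737702 on the plus strand. It was at 11.8, 12.6 and 12.7 FPKM in oeNC and at 10.1, 7.20 and 9.46 FPKM in oeSTUB1. All oeSTUB1 libraries were below all oeNC libraries, and replicate 2 was the lowest. The means were 12.4 ± 0.481 and 8.91 ± 1.51 FPKM (SD, n = 3 each), a log2 fold change of -0.48 (standard error 0.13, 95% CI -0.78 to -0.18, adjusted p = 0.046 from limma). This lay close to the threshold and was lost without any one of the 3 oeNC replicates or oeSTUB1 replicate 3 (adjusted p = 0.12, 0.16, 0.15 and 0.072 from limma). Leaving out oeSTUB1 replicate 2 gave -0.34 with a lower adjusted p of 0.0077 from limma.

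Chromosome 2 moved with SLC39A10. Of its 1031 tested genes 15.5% were called lower, against 6.59% of all tested genes, and their median log2 fold change was -0.21. On chromosome 1, which carries MTF1 and SLC30A1, the median was 0.05. The part of the chromosome in the SLC39A10 value was not tested.

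In order of level, the oeNC cells had MT2A first at 34.8 FPKM, then SLC30A1 at 21.1, MT1X at 12.6, SLC39A10 at 12.4, MTF1 at 1.90 and MT1F at 1.74. The ranges of MT1X and SLC39A10 overlapped, as did those of MTF1 and MT1F. In oeSTUB1 cells the order was MT2A at 226 FPKM, MT1X at 30.2, SLC30A1 at 20.1, SLC39A10 at 8.91, MT1F at 4.95 and MTF1 at 1.93. No neighbours in that order overlapped. The lengths ran from 401 bases for MT2A to 11039 for SLC39A10, and effects of length beyond the FPKM scaling were not corrected in these orders.

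The other members of the zinc transporter families showed no common direction. Of 22 further SLC30A and SLC39A genes, 20 were listed and 17 tested, of which 1 was called higher and 2 lower. This is 17.6%, near the 13.6% of all tested genes, and their median log2 fold change was 0.03. Among the 6 tested exporters 1 was lower, and among the 11 tested importers 1 was higher and 1 lower.

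SLC39A8, the importer ZIP8, which carries zinc, manganese and cadmium, was the gene that rose. It was at 2.93, 3.23 and 3.13 FPKM in oeNC and at 5.27, 5.24 and 5.72 FPKM in oeSTUB1, without overlap and with close replicates. The log2 fold change was 0.79 (standard error 0.095, 95% CI 0.57 to 1.01, adjusted p = 0.0018 from limma). SLC30A3, which loads synaptic vesicles with zinc and also lies on chromosome 2, was lower, at 1.10 ± 0.135 FPKM against 1.62 ± 0.0582 (SD, n = 3 each; log2 fold change -0.53, adjusted p = 0.038 from limma). The importer gene SLC39A5 was lower at very low levels, from 18, 18 and 12 fragments to 3, 6 and 4 (log2 fold change -0.96, adjusted p = 0.044 from limma). The SLC30A3 and SLC39A5 calls were each lost without any 1 of the libraries other than oeSTUB1 replicate 2, with adjusted p-values of up to 0.15 and 0.17, and also under quantile normalization and the replicate block. The SLC39A5 value ran from -1.73 by limma-voom to -0.19 with a pseudocount of 1.

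**Figure D5:**
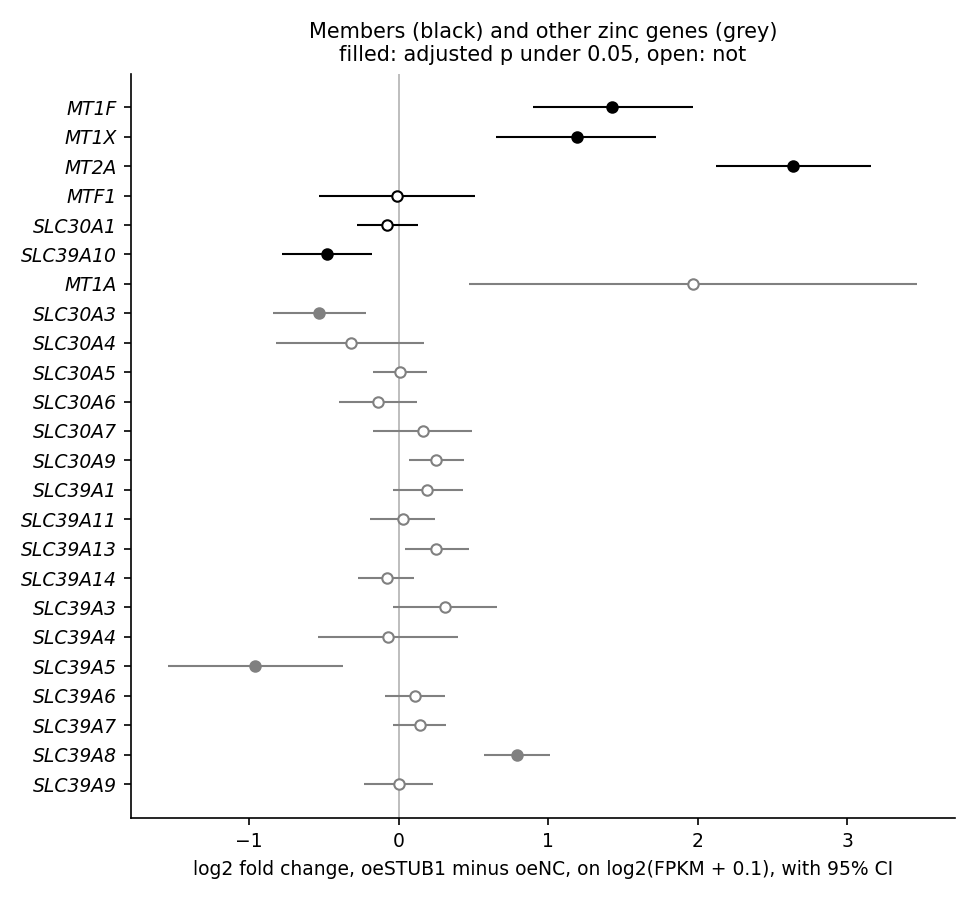
Log2 fold change (oeSTUB1 minus oeNC) with 95% confidence intervals for the 6 tested genes of the set (black) and for MT1A and the 17 other tested zinc transporter genes (grey), with filled points for an adjusted p under 0.05. MT2A, MT1F and MT1X lie at the right at 2.64, 1.43 and 1.19, SLC39A8 at 0.79, and most transporters near 0. MT1A, not called and resting on few fragments, lies at 1.97 with a wide interval.

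Genes of other metal and stress pathways were set beside them, and their counts stand against 7.01% higher and 6.59% lower among all tested genes. Of the 8 copper genes tested 0 were called by limma, 1 had an unadjusted p under 0.05 and limma-voom called 0, with a median log2 fold change of 0.12. Of the 7 iron genes tested, ACO1, which encodes an iron regulatory protein, rose from 9.82 ± 0.309 to 14.8 ± 0.865 FPKM (SD, n = 3 each; log2 fold change 0.58, adjusted p = 0.0033 from limma). SLC40A1, the iron exporter ferroportin on chromosome 2, fell from 4.87, 5.08 and 5.07 FPKM to 2.37, 1.51 and 2.90 FPKM (log2 fold change -1.16, adjusted p = 0.011 from limma).

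Among 10 tested genes of the metal and thiol stress responses, 1 was higher and 2 were lower, while limma-voom called 3 higher and 2 lower. DNAJB1, a heat shock cochaperone, rose from 24.2 ± 1.68 to 35.5 ± 2.03 FPKM (SD, n = 3 each; log2 fold change 0.55, adjusted p = 0.0052 from limma). GCLC, the catalytic subunit for glutathione synthesis, and SRXN1, sulfiredoxin, were lower, with log2 fold changes of -0.42 and -0.43 (adjusted p = 0.0083 and 0.013 from limma). GCLC was no longer called without oeNC replicate 1 or 3 (adjusted p = 0.06 and 0.052 from limma), and SRXN1 without oeNC replicate 1, 2 or 3 (0.085, 0.07 and 0.055). Of 8 tested glucocorticoid response genes 0 were higher and 3 were lower, namely SGK1, ERRFI1 and FKBP5, with log2 fold changes of -0.59, -0.96 and -0.55 (adjusted p = 0.0067, 0.012 and 0.027 from limma). FKBP5 lost its call without oeNC replicate 1, 2 or 3 or oeSTUB1 replicate 1 (adjusted p = 0.1, 0.062, 0.11 and 0.056 from limma). ERRFI1 was at 50.2, 51.6 and 79.3 FPKM in oeNC. Without oeNC replicate 3 its log2 fold change was -0.74 (adjusted p = 0.016 from limma). That library was also the highest of oeNC for FKBP5 and for several uncalled genes of the list, but not for SGK1. At an unadjusted p under 0.05, 0 of the 8 were higher, and limma-voom called 0 higher. The median of that list was -0.38, and its part in the metallothionein values was not tested.

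Across the 6 libraries, genes with at least 1 FPKM whose log2 values followed MT2A most closely included CD59, KRT81, LEPROTL1 and STUB1, with Pearson correlations of 0.9981, 0.9976, 0.9975 and 0.9970 among 11372 genes. The correlation with MT2A was 0.98 for MT1F, 0.96 for MT1X and -0.93 for SLC39A10. It was -0.57 for SLC30A1 and -0.22 for MTF1, and 553 of the 11372 genes reached at least 0.95. The libraries fall into the groups oeNC and oeSTUB1, so these values mostly restate the group difference and are given as a description. In size the genes differed, since KRT81, a hair keratin, rose from 145 ± 3.92 to 467 ± 114 FPKM (SD, n = 3 each), and CD59, a complement inhibitor, from 13.9 ± 0.539 to 26.4 ± 2.61 FPKM. Both were called (log2 fold change 1.66 and 0.92, adjusted p = 0.00065 and 0.00079 from limma), whereas LEPROTL1 was not (0.25, adjusted p = 0.055 from limma).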

How the data were processed

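RNA-seq of 6 TFK1 libraries was analysed, with groups and replicate numbers from the sample titles. The authors deposited FPKM values for 23569 genes by symbol. The submitters' processing notes name fastp 0.20.1, HISAT2 2.1.0, HTSeq 0.11.2, DESeq2 1.22.2, R 3.2.0 and GRCh38.p13 without their roles. The annotation, the strand setting and the handling of fragments matching several genes are not given in the sources used here. Value columns of no mapped sample numbered 0. Whole fragments and gene lengths were recovered from the FPKM steps for 23569 genes, and a divisor common to all 6 libraries may have been lost. Library totals were within 33106564 to 36744521 fragments, and 3 fragments in a library were taken as the floor.

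Groups were compared with limma 3.58.1 in R 4.3.3 (two-sided, with an intensity trend) on log2(FPKM + 0.1) for the 15353 genes whose mean FPKM reached 0.1, with Benjamini-Hochberg adjustment over all of them. Permutation of 3 libraries against 3 cannot go below p = 0.1, so no permutation test was used. Data were simulated for oeSTUB1 against oeNC, with 15344 genes tested. There 200 of 200 genes changed 4-fold were called with the right sign, and 16 unchanged genes were called. The changed genes were drawn only from those with a mean of at least 1 FPKM. Every simulated gene had the same spread beyond counting error, and no library stood apart as oeSTUB1 replicate 2 did. The simulation therefore gives no error rate for these data, for changes smaller than 4-fold or for changes in genes of lower level.

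The 9 genes and all gene lists were chosen with earlier results of these data known. Named are the 9 genes, STUB1, all other listed metallothioneins, the 4 nearest protein-coding genes on each side of the cluster (3 reported on one side), up to 5 called genes of each list, and the 5 genes most correlated with MT2A, of which a few are not reported here. Coordinates are from GENCODE release 29, and promoters and chromosomes from RefSeq on GRCh38.p14. Replicate numbers were not taken to pair libraries (see the closing section). Alternatives were other pseudocounts, filters, scalings and fits, limma-voom on recovered fragments, leaving out each library and, chosen after seeing the data, a correction for gene length. Python 3.11.15 was used for the other steps.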

Additional observations from a re-analysis of the deposited data

How the results depend on the processing

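MT2A and MT1F kept their direction and their call under all 16 alternatives, with log2 fold changes of 2.36 to 2.85 and 1.10 to 1.59. MT1X kept its call under 14 of the 16. SLC30A1 was not called under any, with values from -0.13 to -0.02. Genes of the set called higher numbered 2 to 3 when 1 library was left out. Genes called lower, that is SLC39A10, numbered 0 with no filter, with eBayes without a trend and with the replicate block, and 0 to 1 when 1 library was left out, although 1 gene had an unadjusted p under 0.05 in each of these fits and limma-voom called 1. Called zinc transporter genes numbered 1 under quantile normalization and 1 under the replicate block, and 1 to 6 when 1 library was left out, the 6 being without oeSTUB1 replicate 2. MTF1 turned to 0.00 with a pseudocount of 1, 0.03 under quantile normalization, 0.06 with the length correction and -0.18 to 0.24 when 1 library was left out. The cause was not tested.

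Same-numbered libraries did not deviate together (correlations of -0.15, -0.08 and 0.15), so the block is given for completeness. It moved the calls over all genes from 1076 higher and 1012 lower to 741 and 747. Those counts were 474 and 453 without oeNC replicate 2, 484 and 469 without oeNC replicate 1, 563 and 473 without oeNC replicate 3, 2273 and 1845 without oeSTUB1 replicate 2, and 1675 and 1647 with the length correction. MT1A was called with the length correction (1.89, adjusted p = 0.048 from limma) and without oeSTUB1 replicate 1 (2.68, adjusted p = 0.02 from limma). Depth limits MT1E, MT1A and MT3, which rest on a few fragments.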
